A study of Mus musculus with 4 samples.

Results

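Thioredoxin-interacting protein (Txnip), the other alpha-arrestins on the array (Arrdc1, Arrdc2, Arrdc3 and Arrdc4) and both thioredoxins (Txn1 and Txn2) were followed in RNA described as that of mouse mesangial cells, the contractile cells that support the capillaries of the kidney glomerulus. The 7 genes were represented by every probe set annotated with 1 of these symbols and no other, which gave 14 of the 45101 probe sets on the array, for 7 of 18193 genes with such a probe set. The gene family was chosen because Txnip was far lower in the TGF-beta1 arrays in an earlier examination of the same values. The contrast of TGF-beta1 with low glucose is therefore given for these genes as a description, without a test.

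Total RNA was measured on 4 one-colour oligonucleotide arrays, 2 labelled low glucose and 2 labelled TGF-beta1 (transforming growth factor beta 1, the main fibrogenic cytokine of the glomerulus). The labels give no strain, dose, time or glucose concentration, do not say whether the cells were primary cells or a line, and do not say whether cells given TGF-beta1 were kept in low or high glucose. Because Txnip transcription follows glucose, a difference in medium glucose and an effect of TGF-beta1 cannot be told apart here. Whether the 2 arrays of a group stem from separate cultures is not stated, so any p-value rests only on the spread among these arrays, which may be technical. In the main fit that spread was pooled over genes of like brightness and was not a gene's own. The small number of arrays limits the precision.

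Txnip binds the reduced active site of thioredoxin and also brings glucose transporters of the plasma membrane to endocytosis. Its gene is switched on by the glucose sensors MondoA (Mlxip) and ChREBP (Mlxipl), each acting with Mlx, so that more glucose raises Txnip and Txnip then lowers glucose uptake. Txnip is widely studied in diabetic kidney, where it rises with glucose. Arrdc4 is a close relative with the same glucose-sensing activators, and the other alpha-arrestins act mainly as adaptors that bring NEDD4-family ubiquitin ligases to membrane proteins.

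The arrays fell into 2 pairs that cross the groups. Array pair 1 consists of low glucose replicate 1 with TGF-beta1 replicate 2, and array pair 2 of low glucose replicate 2 with TGF-beta1 replicate 1. The pairs rest on 18 probe sets of hybridisation spike-ins, which differed on average by 0.0482 (pair 1) and 0.0775 (pair 2) on the log2 scale inside a pair and by 0.937 or more across pairs. Array medians ranged from 78.28 to 99.62 in deposited intensity. Mesangial identity was only partly visible: 8 of 10 mesangial markers passed the filter on dim probe sets, with Gata3 and Thy1 dim. Vim (mean log2 value 12.35) and Tagln (8.50) were the brightest of them, and the others lay from 6.85 (Itga8) to 7.54 (Des). Of 8 renal tubule markers 5 passed it as well: Cdh16 (10.83), Pax8 (9.54), Lrp2 (8.88), Epcam (7.98) and Umod (7.06). The tubule markers Slc34a1, Cdh1 and Slc12a1 were dim. Of 6 endothelial markers, 5 were dim. Macrophage markers passed the filter in 4 of 6 cases: Csf1r (10.36), Adgre1 (7.12), Cd68 (7.10) and Itgam (6.94). Csf1r was thus brighter than every mesangial marker except Vim. Podocyte markers passed it in 3 of the 4 cases with a probe set: Podxl (8.52), Nphs1 (7.55) and Synpo (7.48).

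The proximal promoters of Txnip and Arrdc4 are shown because these are the 2 alpha-arrestins with known MondoA and ChREBP control and because Txnip and the brighter Arrdc4 probe set were lower in the TGF-beta1 arrays. They are the 250 bases before the annotated start, taken from RefSeq (GRCm38.p6), and run to the base before the start. Txnip lies at chr3:96557707-96557956 (plus strand) and Arrdc4 at chr7:68749239-68749488 (minus strand). Capitals mark CCAAT boxes in either orientation, canonical E-boxes (CACGTG) and the 2 hexamers of a tandem E-box-like pair, whose spacer is in lower case; E-box-like hexamers outside such a pair are left in lower case.
Txnip: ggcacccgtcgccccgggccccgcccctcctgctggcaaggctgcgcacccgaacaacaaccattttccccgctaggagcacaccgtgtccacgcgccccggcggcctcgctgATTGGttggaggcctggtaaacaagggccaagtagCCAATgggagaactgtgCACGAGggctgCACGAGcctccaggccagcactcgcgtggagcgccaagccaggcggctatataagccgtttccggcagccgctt
Arrdc4: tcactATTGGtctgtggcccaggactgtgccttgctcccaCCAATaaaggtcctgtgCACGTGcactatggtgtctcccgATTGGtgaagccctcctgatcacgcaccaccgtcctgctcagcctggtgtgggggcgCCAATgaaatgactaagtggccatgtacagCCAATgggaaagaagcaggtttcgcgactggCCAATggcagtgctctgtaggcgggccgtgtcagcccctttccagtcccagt

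The Txnip promoter held 1 tandem pair of E-box-like hexamers, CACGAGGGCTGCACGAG, from -85 to -69 relative to the start. The search was for a pair of CACGNG hexamers in the same orientation spaced by 5 bases, or of their reverse complement CNCGTG. This is only 1 layout of carbohydrate response elements. Pairs with 1 hexamer inverted or with other letters were not searched. The counts depend on this choice, and a window without a match may still hold such an element. It occurred in 15 of 32851 promoter windows of the same length (0.0457%), and Txnip was the one member among the 7 whose window matched. Single hexamers of the same letters, CACGNG or CNCGTG, numbered 4 in the Txnip window: the 2 of the pair, CACGCG from -160 to -155 and CGCGTG from -52 to -47. At least 1 occurred in 23.5% of all windows. Arrdc4 had no such pair and held 1 canonical E-box, CACGTG, from -193 to -188, a hexamer found in 6.02% of windows. CCAAT boxes (CCAAT or ATTGG) numbered 2 in Txnip and 6 in Arrdc4, against 33.8% of windows with at least 1, and none of them overlapped an E-box or the tandem pair. No array value bears on whether these sites were occupied.

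Txnip was low in both TGF-beta1 arrays with both of its probe sets. On probe set 1415996_at the deposited intensity was 700 and 927 in low glucose replicates 1 and 2, against 295 and 192 in TGF-beta1 replicates 1 and 2. On probe set 1415997_at low glucose read 706 and 541, against 182 and 186 in TGF-beta1. With either probe set the groups did not overlap, and the higher TGF-beta1 array lay well under the lower low glucose array.

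The differences below are TGF-beta1 minus low glucose on the log2 scale, computed after adding a pseudocount of 46.88 and quantile normalisation. The pseudocount makes them understate changes, those of dim probe sets most. For Txnip the difference was -1.61 on 1415996_at, or 3.04-fold lower in TGF-beta1 with the pseudocount included. Its standard error was 0.0776 from limma with the array pair as a block and 0.289 without the block (n = 2 arrays per group). The difference was -1.53, or 2.89-fold, on 1415997_at. Low glucose over TGF-beta1 ratios of deposited intensity were 3.65 and 3.15 in pairs 1 and 2 on 1415996_at. They were 3.80 and 2.97 on 1415997_at. Within the array pairs the first probe set differed by -1.70 and -1.51 and the second by -1.74 and -1.32. These were the lowest and second lowest of 27023 probe sets that passed the filter on dim probe sets. In bulk RNA, fewer cells that express a gene and less of its RNA per cell cannot be told apart.

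The 2 Txnip probe sets ordered the low glucose arrays in opposite ways. Normalised log2 values on 1415996_at were 9.52 and 9.95 in low glucose replicates 1 and 2, and on 1415997_at they were 9.53 and 9.22. In TGF-beta1 replicates 1 and 2 the values were 8.44 and 7.82 on the first and 7.90 and 7.78 on the second. The mean of array pair 2 exceeded that of pair 1 by 0.53 on the first probe set and was below it by -0.09 on the second, while the gap between the nearest arrays of opposite groups was 1.08 and 1.32. On both probe sets the groups stayed apart by more than the arrays of a group differed.

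**Figure D1:**
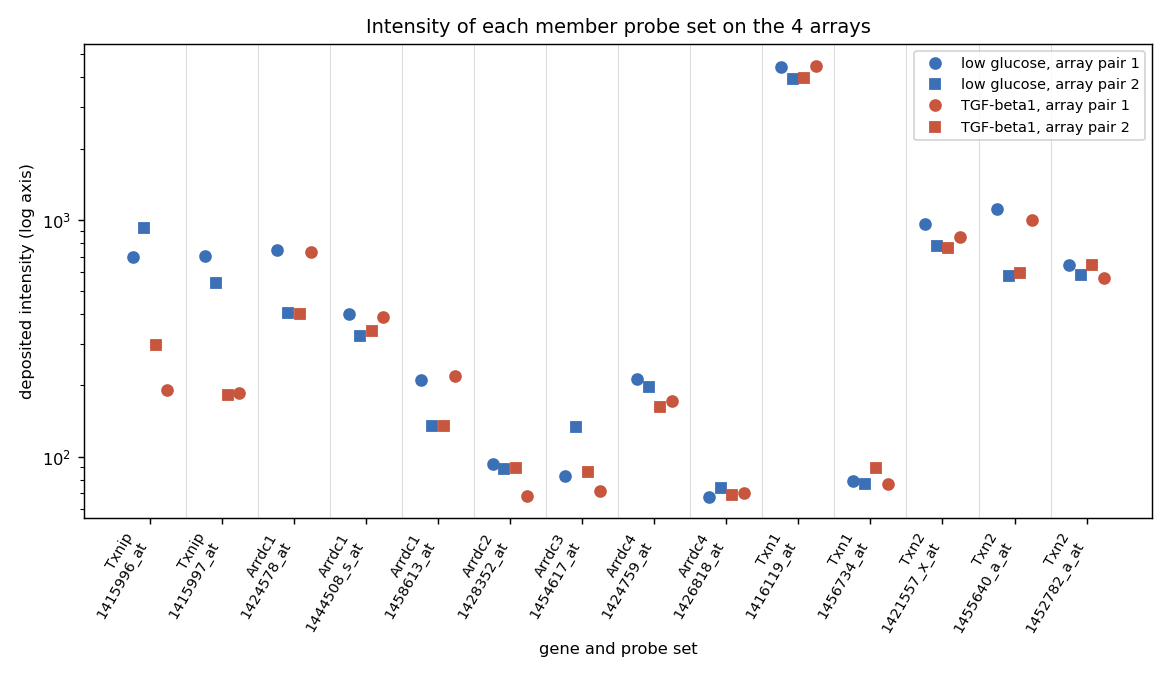
Deposited intensity (log axis) of each of the 14 probe sets on the 4 arrays; colour marks the group and symbol the array pair, 1 point per array. The 2 Txnip probe sets separate the groups widely, from 541 to 927 in low glucose and from 182 to 295 in TGF-beta1. Arrdc4 on 1424759_at separates them narrowly. Arrdc1, Arrdc3, Txn1 on 1416119_at and Txn2 on 1421557_x_at and 1455640_a_at separate by array pair.

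Among the other alpha-arrestins, Arrdc4, which like Txnip can draw the glucose transporter GLUT1 off the membrane, was slightly lower on its brighter probe set. Probe set 1424759_at read 213 and 197 in low glucose, against 162 and 172 with TGF-beta1, without overlap of the groups. The difference was -0.24 (-0.27 and -0.21 within the pairs), or 1.18-fold with the pseudocount included. The second Arrdc4 probe set, 1426818_at, read 67.6 and 73.6 in low glucose, against 69.0 and 70.3 with TGF-beta1. Its groups overlapped and its difference was -0.04, so the lower level of Arrdc4 rests on 1 of its 2 probe sets.

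Arrdc3, an adaptor that routes the beta2-adrenergic receptor and integrin beta4 to degradation, differed by -0.30 (-0.15 and -0.46 within the pairs). Its probe set 1454617_at read 82.9 and 134 in low glucose, against 85.9 and 71.5 with TGF-beta1. The groups overlapped, with low glucose replicate 2 above all other arrays. Dropping that array gave a difference of 0.03, and dropping low glucose replicate 1 gave -0.63. With 1 array dropped the array pairs are unbalanced. These values therefore mix in the difference of pair 2 from pair 1, which was 0.50.

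Arrdc2 read 93.0 and 88.7 in low glucose, against 89.7 and 68.4 with TGF-beta1, on probe set 1428352_at. TGF-beta1 replicate 2 was the low array and the other arrays were alike. The difference was -0.15, made up of -0.29 within pair 1 and -0.02 within pair 2. Dropping TGF-beta1 replicate 2 gave 0.06, a value that mixes in the difference of pair 2 from pair 1 (0.29).

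Arrdc1, a plasma membrane arrestin that drives the budding of small vesicles through Tsg101, followed the array pair and not the group. Probe set 1424578_at read 742 and 733 on the low glucose and TGF-beta1 arrays of pair 1, and 403 and 399 on those of pair 2. The difference between the groups was -0.01, while pair 2 differed from pair 1 by -0.77. Its other 2 probe sets differed between the groups by 0.01 and 0.02 and between the pairs by -0.18 and -0.37. All 3 Arrdc1 probe sets were therefore lower in array pair 2 with hardly any difference between the groups.

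The arrays showed closely similar values for thioredoxin itself. Txn1, the cytosolic and nuclear thioredoxin that reduces protein disulfides, read 4434 and 3917 in low glucose, against 3966 and 4485 with TGF-beta1, on probe set 1416119_at. The groups overlapped fully, with both higher arrays in pair 1, and the difference was 0.01 (-0.02 and 0.04 within the pairs). The second probe set, 1456734_at, ranged from 76.3 to 89.6 with a difference of 0.04.

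Txn2, the mitochondrial thioredoxin, had 3 probe sets with differences of -0.09, -0.06 and -0.02. The brightest, 1421557_x_at, read 964 and 776 in low glucose, against 759 and 850 with TGF-beta1. On 1455640_a_at the arrays of pair 1 read 1113 and 995 and those of pair 2 read 577 and 597, a difference between pairs of -0.76. The probe set 1452782_a_at ranged from 565 to 644 and differed by -0.17 and 0.14 within the pairs. None of the 3 separated the groups.

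Over the 14 probe sets, all of which passed the filter on mean brightness, 3 had both TGF-beta1 arrays below both low glucose arrays (the 2 of Txnip and 1 of Arrdc4) and 0 had them above. Over all probe sets that passed the filter these shares were 10.2% and 9.53%. For 7 of the 14 the within-pair differences had opposite signs. With 1 probe set per gene, the median difference of the 7 genes was -0.15, against 0 for all 13565 tested genes. In limma's fit blocked on the array pair, 3 of the 7 genes (Txnip, Arrdc3 and Arrdc4) were lower at an adjusted p under 0.05 and 0 were higher, where 10.6% of all tested genes were lower and 7.89% higher. The genes were chosen on this contrast, so nothing is read from that count. Without the block limma called 0 genes, and 271 had an unadjusted p under 0.05.

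**Figure D2:**
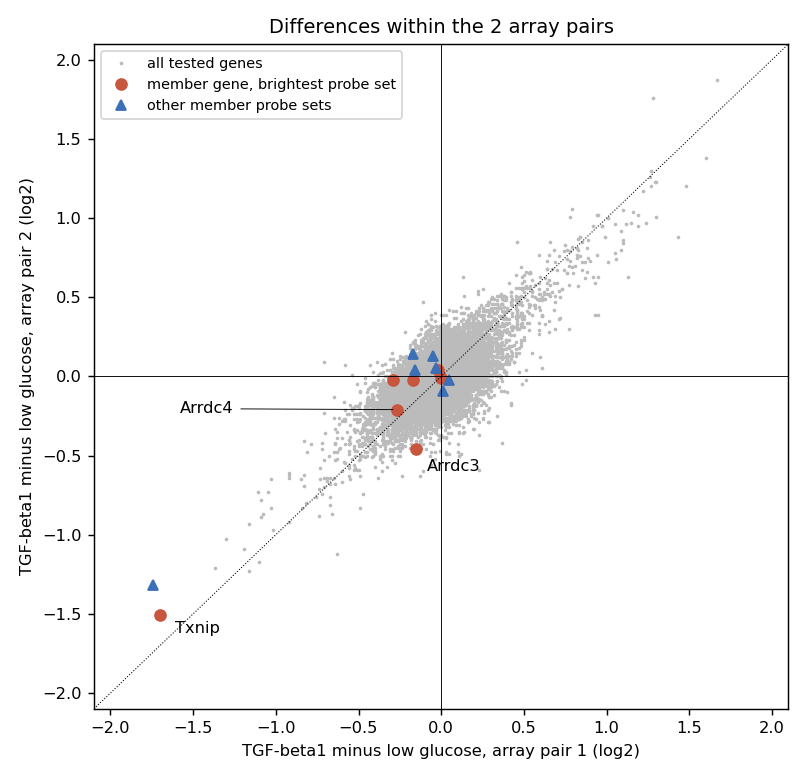
Difference of TGF-beta1 minus low glucose (log2) within array pair 1 (x axis) and array pair 2 (y axis); grey points are the 13565 tested genes, circles the 7 member genes by their brightest probe set, triangles their other probe sets, and the dotted line marks equal differences. Both Txnip probe sets lie apart at the lower left (-1.70 and -1.51; -1.74 and -1.32), and the other members lie within the cloud.

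Markers of mesangial and other cell types were read gene by gene against limma's adjusted p of 0.05, which 18.5% of all tested genes passed when the array pair was a block and 0 without it. Of the tubule markers (5 of 8 above the filter; Slc34a1, Cdh1 and Slc12a1 dim) Lrp2 (-0.29) and Cdh16 (-0.31) were lower in TGF-beta1 and the other 3 did not pass. Of the mesangial markers (8 of 10 above the filter) Acta2 (0.32), Vim (0.29) and Tagln (0.88) were higher and the other 5 did not pass. Of the macrophage markers (4 of 6 above the filter; Ptprc and Tyrobp dim) Csf1r was lower (-0.38), while Cd68 (0.14), Adgre1 (0.06) and Itgam (-0.10) did not pass. Podxl (0.23) was higher and Synpo (-0.58) lower among the podocyte markers (3 of 4 with a probe set above the filter; Wt1 dim), and Kdr (0.01), the endothelial marker above the filter (1 of 6), did not pass. The median difference over all markers of a list with a probe set was -0.098 for tubule, 0.071 for mesangial and 0.049 for macrophage markers.

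Summed over such a list, normalised intensity follows its brightest genes. The tubule sum was 3474 to 3776 in low glucose and 3057 to 3100 in TGF-beta1, and the mesangial sum, mostly Vim, was 5324 to 5887 and 6676 to 7212. The macrophage sum, 1678 to 1917 and 1341 to 1593, was lower in TGF-beta1 through Csf1r, against the sign of the list's median. The podocyte sums, 621 to 702 and 575 to 748, and the endothelial sums, 290 to 299 and 260 to 296, overlapped between the groups. The part of these marker differences in the Txnip difference was not tested.

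The genes whose pattern over the 4 arrays was most like that of Txnip were Arhgap24, Enpep, Sult1c2, Selenbp1 and Agt. Likeness was the Euclidean distance between log2 values after subtraction of each gene's mean. This distance was 0.43, 0.47, 0.58, 0.59 and 0.62 in that order, with a median of 1.71 over all tested genes. Txnip was represented by probe set 1415996_at, on which array pair 2 exceeded pair 1 by 0.53. On 1415997_at that difference was -0.09, and nearness to that probe set was not computed. Arhgap24, a GTPase-activating protein for Rac, read 542 and 785 in low glucose, against 306 and 225 with TGF-beta1. Enpep, the aminopeptidase that cleaves angiotensin II, read 268 and 350 and then 130 and 98.1. Agt, the precursor of the angiotensins, read 633 and 598 and then 267 and 237. Selenbp1, a methanethiol oxidase, read 471 and 445 and then 156 and 165, and Sult1c2, a sulfotransferase, 478 and 722 and then 356 and 198. All 5 were lower in TGF-beta1, by between -1.29 (Selenbp1) and -1.05 (Sult1c2). That direction follows from their choice by likeness to Txnip and is no separate result. Each difference was smaller than that of Txnip, which was the lowest of all tested genes. Arrdc3 and Arrdc4 were at distances of 1.33 and 1.44, which ranked 328 and 999 by nearness among all tested genes.

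**Figure D3:**
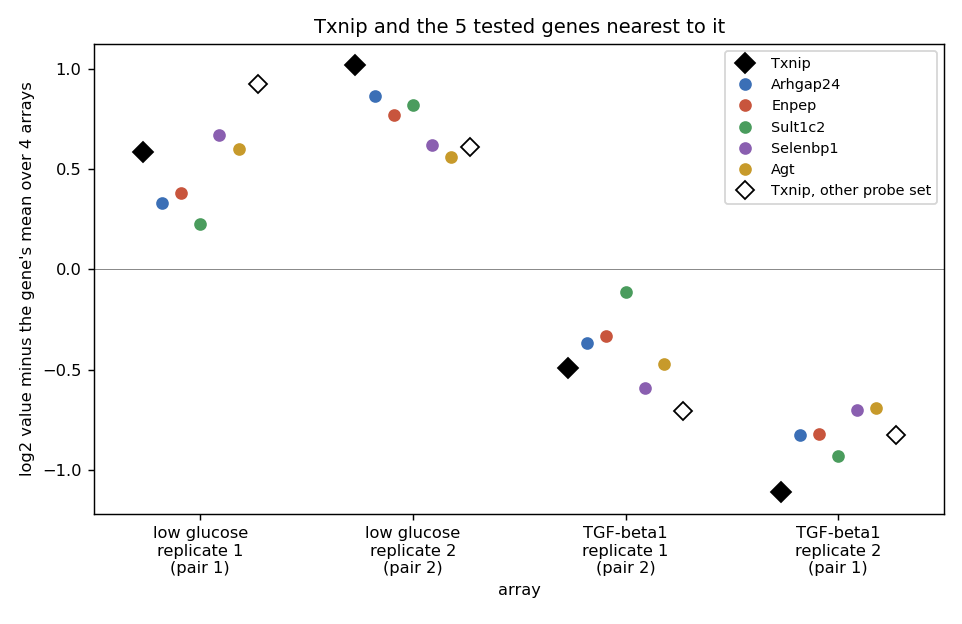
Normalised log2 value minus the gene's own mean over the 4 arrays (y axis) for Txnip, the 5 nearest tested genes and the other Txnip probe set, by array (x axis), 1 point per gene and array. All genes shown lie above their mean in both low glucose arrays and below it in both TGF-beta1 arrays. For the 5 genes this follows from their choice by likeness to Txnip. The other Txnip probe set is higher in low glucose replicate 1 than in replicate 2, unlike the Txnip probe set used.

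The genes around Txnip were examined in 6 lists, with 71 genes tested. Genes of these lists are said to have risen or fallen where limma with the array pair as a block gave an adjusted p under 0.05, a fit with 1 residual degree of freedom in which 18.5% of all tested genes passed. Without the block 0 of the 71 passed and 3 had an unadjusted p under 0.05. With it, 9 rose and 11 fell, where 7.89% of all tested genes were higher and 10.6% lower. Values after ± are standard errors of the blocked fit, with n = 2 arrays per group. They depend on a gene's brightness and not on its own spread. Where 1 array was dropped the block had to go as well, so the array pairs are unbalanced in those values.

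Of 9 tested regulators of Txnip 1 rose, 0 fell and 8 did not pass (median -0.07). Foxo1, a transcription factor restrained by insulin signalling, rose by 0.30 ± 0.0809 (0.27 and 0.33 within the pairs). Its other probe sets were at 0.35, 0.34 and -0.03. Foxo1 was at 0.56 and 0.04 with low glucose replicate 1 or 2 dropped and at 0.53 and 0.07 with TGF-beta1 replicate 1 or 2 dropped. Mlxip, which encodes MondoA, was at -0.01 ± 0.0639 and Mlx at -0.15 ± 0.0781, neither passing. Mlxipl was dim and not tested.

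Among other targets of MondoA and ChREBP, 4 of 12 rose, 2 fell and 6 did not pass (median 0.11). Fgf21, a stress and fasting hormone, rose by 1.52 ± 0.0644, from log2 values of 6.70 and 6.97 in low glucose to 8.73 and 7.98 in TGF-beta1. Its low glucose mean, 6.84, lay near the limit of the filter on dim probe sets, which Fgf21 passed largely through its TGF-beta1 arrays. The difference ranged from 1.14 to 1.93 with 1 array dropped. It was 1.25 with the pseudocount at the 50th percentile and 2.06 with a floor. Elovl6, a fatty acid elongase, fell by 0.57 ± 0.0823, with -0.55 and -0.08 on its other probe sets. Khk, the fructokinase, fell by 0.31 ± 0.0708. Klf10, a TGF-beta-inducible factor that ChREBP also activates, rose by 0.31 ± 0.0731, and Acaca and Gpd1 were the others that rose. With low glucose replicate 1 or 2 dropped Klf10 was at -0.04 and 0.64, and with TGF-beta1 replicate 1 or 2 dropped at 0.04 and 0.58. Gpd1 was at 0.19 ± 0.0647 and did not pass without the intensity trend. The same omissions put Gpd1 at 0 and 0.37, and at -0.08 and 0.48.

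Among glucose transporters and hexokinases, 2 of 9 rose, 2 fell and 5 did not pass (median -0.055). Hk2, the inducible hexokinase that commits glucose to glycolysis, rose by 0.79 ± 0.0817, with log2 values of 9.72 and 9.63 in low glucose against 10.39 and 10.54 with TGF-beta1. Slc2a1, which encodes the GLUT1 transporter that Txnip restrains, rose by 0.41 ± 0.0733 (0.48 and 0.33 within the pairs), and its other probe sets were at 0.56 and 0.52. The arrays of the 2 groups overlapped for Slc2a1, at 10.43 and 10.97 in low glucose against 11.30 and 10.92 with TGF-beta1. Slc2a8, an intracellular transporter, fell by 0.33 ± 0.0733 and Slc2a6 by 0.28 ± 0.0741. Slc2a1 was at 0.14 and 0.68 with low glucose replicate 1 or 2 dropped and at 0.21 and 0.60 with TGF-beta1 replicate 1 or 2 dropped. With 1 array dropped Slc2a8 ranged from -0.46 to -0.20 and Slc2a6 from -0.42 to -0.15, both weakest without TGF-beta1 replicate 2.

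Of 18 tested thioredoxin reductases, peroxiredoxins, glutaredoxins and related enzymes 1 rose, 3 fell and 14 did not pass (median -0.02). Those that fell were Msrb1 and Msrb2, reductases of oxidised methionine that draw on thioredoxin, at -0.30 ± 0.0802 and -0.28 ± 0.0790, and Glrx, the cytosolic glutaredoxin, at -0.29 ± 0.0728, with -0.23 on its other probe set. Txnl1, a thioredoxin-like protein of the proteasome, rose by 0.22 ± 0.0761, with 0.24 and -0.10 on its other probe sets. The thioredoxin reductase Txnrd1, which recycles Txn1, was at 0.14 ± 0.0760 without passing, and its other probe sets were at 0.24 and 0.19. With low glucose replicate 1 or 2 dropped Msrb2 was at -0.69 and 0.13, and with TGF-beta1 replicate 1 or 2 dropped at -0.66 and 0.10. The same omissions put Glrx at -0.60 and 0.02, and at -0.50 and -0.06. They put Txnl1 at -0.08 and 0.52, and at 0.05 and 0.39.

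Of 8 tested genes for proteins that thioredoxin or Txnip bind and for the inflammasome, 0 rose, 1 fell and 7 did not pass (median 0.01). Il1b, the inflammasome's cytokine, was the gene that passed, at -0.18 ± 0.0652, but its differences within the pairs were -0.43 and 0.07. Its call ended with the authors' scaling, without the filter and without the intensity trend, and it was at 0.12 and -0.46 with low glucose replicate 1 or 2 dropped. Map3k5, the kinase ASK1 that thioredoxin holds inactive, was at -0.12 ± 0.0648, and Nlrp3, the inflammasome sensor that Txnip can bind, at 0.11 ± 0.0725.

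Among other arrestins and partners of the NEDD4 ligase family, 1 of 15 rose, 3 fell and 11 did not pass (median 0.03). Over all tested genes 7.89% were higher and 10.6% lower. Arrb1, beta-arrestin 1, fell by 0.40 ± 0.0639 (-0.53 and -0.27 within the pairs). Vps26a, a retromer subunit with an arrestin fold, fell by 0.22 ± 0.0820. Wwp1, a ligase that alpha-arrestins recruit, fell by 0.21 ± 0.0678, with -0.27 and -0.31 on its other probe sets, while Smurf1, a ligase for SMADs and TGF-beta receptors, rose by 0.20 ± 0.0704. Smurf1 did not pass with median centring or without the filter. With low glucose replicate 1 or 2 dropped Wwp1 was at -0.38 and -0.05, and with TGF-beta1 replicate 1 or 2 dropped at -0.40 and -0.01. The same omissions put Smurf1 at 0.41 and 0, and at 0.37 and 0.03.

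**Figure D4:**
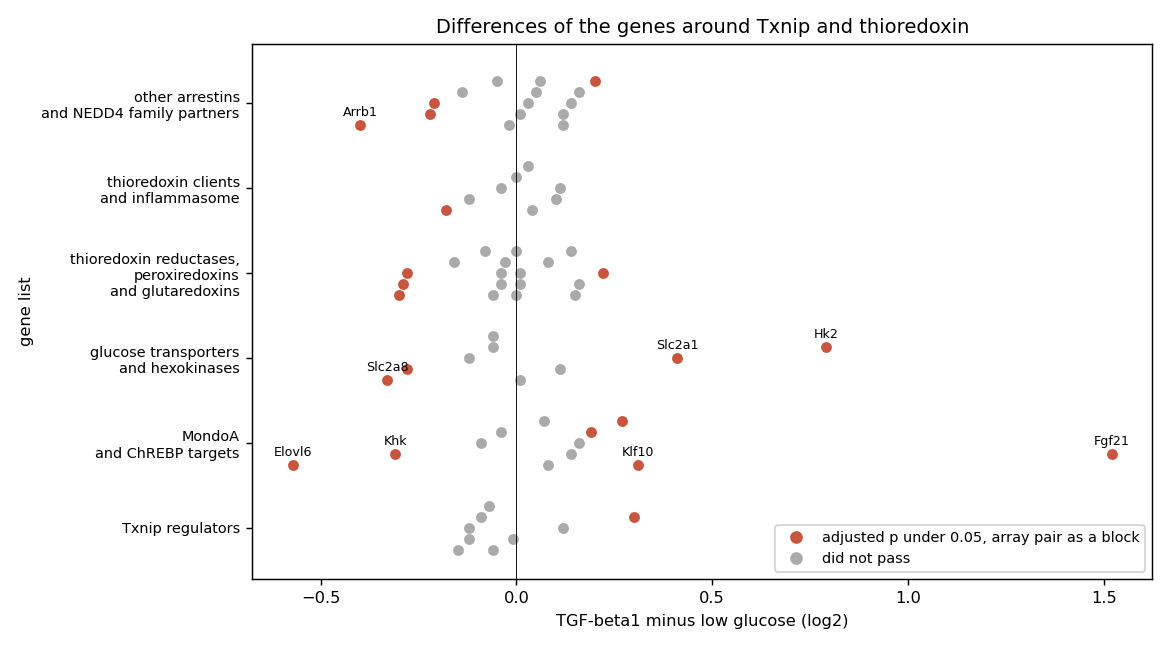
Difference of TGF-beta1 minus low glucose (log2, x axis) of the 71 tested genes in the 6 lists (y axis; vertical offsets within a list only separate points); red points passed an adjusted p of 0.05 in limma with the array pair as a block. Fgf21 (1.52) and Hk2 (0.79) lie farthest to the right and Elovl6 (-0.57) farthest to the left.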

How the data were processed

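The authors deposited 1 linear intensity per probe set and array for 4 arrays; for the summarisation of probes and the scaling of arrays no method is given in the labels or the file. Groups came from the sample titles. Probe sets were named from the platform annotation: 34945 had 1 symbol, 932 several and 9160 none, leaving out 64 control probe sets. Values were transformed as log2(intensity + 46.88), the 25th percentile of all values, and quantile normalised. Dim probe sets, under the 40th percentile of mean log2 value, were left out, and the brightest of each gene was tested (13565 genes) with limma (lmFit, eBayes with trend; two-sided; Benjamini-Hochberg adjustment over all tested genes; threshold 0.05; limma 3.58.1, R 4.3.3; figures with Python 3.11.15 and matplotlib 3.10.9). The code of the fit was run on simulated data drawn with the fit's own standard errors as spread. That run cannot show whether those standard errors hold for these arrays.

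The array pair, from the spike-ins, was a block. A repeat tag shared by 1 title of each group marks the same pair. With the block, 1 residual degree of freedom remains and limma's prior is infinite, so that standard errors depend on brightness alone. Within the pairs arrays correlated across genes at 0.988 or more, and arrays of the same group at 0.955 or less.

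The members, lists and block were chosen with earlier results of these data known. From each list, up to 4 genes past the threshold with the largest difference were named, and the 5 genes nearest to Txnip. Mlxip, Mlx, Mlxipl, Acaca, Gpd1, Txnrd1, Map3k5 and Nlrp3 were named outside that rule after their values were seen. Alternatives were other pseudocounts, a floor, other scalings, filters and probe sets, no block, other priors, and leaving out each array.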

Additional observations from a re-analysis of the deposited data

How the results depend on the processing

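The Txnip difference on 1415996_at kept its direction under every alternative run, from -1.80 with a floor in place of the pseudocount to -1.47 with the pseudocount at the 50th percentile, and from -1.90 to -1.30 when 1 array was left out. Arrdc4 on its brighter probe set also stayed negative in all 10 alternatives (from -0.30 to -0.19). Arrdc3 ranged from -0.63 to 0.03 and Arrdc2 from -0.37 to 0.06 when 1 array was left out, and no Arrdc1, Txn1 or Txn2 probe set kept 1 sign. With the array pair as a block limma called 2503 genes, 20 of them in the lists. With no replicate block it called 0 and 0, and with the block and the prior degrees of freedom of the unblocked fit (2.79) also 0 and 0, where 2242 genes had an unadjusted p under 0.05. No call given in the report held in either of these fits. With all kept probe sets 4076 probe sets were called. Leaving out 1 array, without the block, gave 0 to 11 called genes and 0 to 1 in the lists. Of the list genes that passed, Klf10 (-0.04 to 0.64), Gpd1 (-0.08 to 0.48), Il1b (-0.46 to 0.12), Glrx (-0.60 to 0.02), Msrb2 (-0.69 to 0.13, and 0.10 without TGF-beta1 replicate 2) and Txnl1 (-0.08 to 0.52) changed sign when 1 array was left out; such values mix the pair difference in, and the cause was not tested. Low signal limits Arrdc2, Arrdc3 and the second Arrdc4 and Txn1 probe sets, whose changes the pseudocount understates.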
